A study of Rattus norvegicus with 36 samples.

Results

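The 12 unirradiated small RNA libraries of a rat irradiation study were compared here, 6 from lung against 6 from whole blood, out of 36 libraries in all. They were chosen by their labels as every library given 0 Gy, and the comparison covered the 459 known miRNAs among 947 features of the deposited count table, namely 458 listed as unique mature rat miRNAs and miR-486-5p. The rats were female WAG/RijCmcr rats, 9 to 10 weeks old when the irradiated animals received 15 Gy of X-rays to the thorax. Groups were lung 0 Gy at 1 week, lung 0 Gy at 4 weeks, blood 0 Gy at 1 week and blood 0 Gy at 4 weeks, with 3 libraries in each, all labelled as unirradiated. The study's supplement exchanges the first 1-week blood library with a 15 Gy blood library of the same week. The labels were followed here, and with the exchange 101 known miRNAs were higher and 65 lower in lung. By the study's methods each library held RNA pooled in equal amounts from 3 rats, the lung tissue came from the right superior lobe, and the blood was drawn by cardiac puncture and extracted whole. The labels give 3 rats per group, which does not match 3 pools of 3, so p-values measure the spread between libraries, whether these are pools or single rats, and the labels do not tie a lung pool to a blood pool.

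MicroRNAs are short RNAs cut from a hairpin precursor, and 1 arm (5p or 3p) usually goes on to be loaded into Argonaute. The loaded miRNA pairs with target mRNAs mainly through its seed, bases 2 to 8 from the 5′ end, and lowers their translation and stability. Lung holds endothelium, smooth muscle, ciliated, secretory and alveolar epithelium, fibroblasts and resident leukocytes, while whole blood RNA comes mostly from red cells, platelets and white cells. Lung tissue also contains blood, so a miRNA of blood cells is measured in both tissues. In bulk libraries fewer cells of a type and less RNA per cell cannot be told apart.

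Sequences are given for the miRNAs the comparison turned on, from RefSeq (build GRCr8), in which 414 of the 459 known miRNAs were matched by name and 177 of the 198 tested ones. Capitals mark the seed. The lung set holds the most abundant and the most unequal lung miRNAs, each named for its tissue or locus in the results.
miR-143-3p: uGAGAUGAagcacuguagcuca
miR-10a-5p: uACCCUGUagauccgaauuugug
miR-126a-3p: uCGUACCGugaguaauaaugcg
miR-126a-5p: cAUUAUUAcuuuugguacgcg
miR-127-3p: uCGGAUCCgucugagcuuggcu
miR-201-5p: cACUCAGUaaggcauuguuc
miR-34b-3p: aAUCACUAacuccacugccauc
miR-34c-5p: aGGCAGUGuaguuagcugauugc
miR-141-3p: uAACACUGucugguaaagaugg
miR-199a-5p: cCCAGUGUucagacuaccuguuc
miR-99b-5p: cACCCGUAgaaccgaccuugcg
miR-125a-5p: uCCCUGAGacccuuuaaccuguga
The blood set holds the red cell miRNAs and members of the miR-17-92 and miR-106b-25 clusters, with the liver miRNA miR-122-5p.
miR-451-5p: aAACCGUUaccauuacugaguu
miR-144-3p: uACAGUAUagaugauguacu
miR-16-5p: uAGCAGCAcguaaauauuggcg
miR-17-5p: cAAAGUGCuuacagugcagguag
miR-18a-5p: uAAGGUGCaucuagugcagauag
miR-92a-3p: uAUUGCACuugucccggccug
miR-25-3p: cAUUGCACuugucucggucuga
miR-122-5p: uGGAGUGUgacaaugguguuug
The third set shows miRNAs that share a seed with another member but were called in the opposite direction, and the arms of the miR-532 hairpin.
let-7e-5p: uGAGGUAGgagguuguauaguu
let-7d-5p: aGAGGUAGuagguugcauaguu
let-7i-5p: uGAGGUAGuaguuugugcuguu
miR-195-5p: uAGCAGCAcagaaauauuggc
miR-497-5p: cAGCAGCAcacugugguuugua
miR-322-5p: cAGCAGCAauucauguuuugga
miR-15b-5p: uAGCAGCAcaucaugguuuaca
miR-92b-3p: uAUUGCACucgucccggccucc
miR-363-3p: aAUUGCACgguauccaucugu
miR-130a-3p: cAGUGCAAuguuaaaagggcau
miR-130b-3p: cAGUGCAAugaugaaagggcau
miR-152-3p: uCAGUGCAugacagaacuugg
miR-148b-3p: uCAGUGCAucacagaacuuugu
miR-532-5p: cAUGCCUUgaguguaggacugu
miR-532-3p: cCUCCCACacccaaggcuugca
No sequence is printed for miR-486-5p, miR-429, miR-200a-3p, miR-200b-3p and miR-150-5p.

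Depth was uneven. Counts on known miRNAs other than miR-486-5p were 6564 to 1640976 in lung and 52432 to 171368 in blood, and miR-486-5p alone held 1.60 to 9.71% of known counts in lung and 91.8 to 96.9% in blood. The third lung library at 1 week had only 11621 counts over all features, so that 1 count there equalled 49.7 scaled counts per 1000000 (CPM), and 134 known miRNAs were seen in it, against 339 to 386 in the other lung libraries and 196 to 232 in blood. Its log2 CPM correlated at 0.889 to 0.910 with the other lung libraries, other lung pairs at 0.934 to 0.994, blood pairs at 0.944 to 0.986, and lung with blood at 0.415 to 0.546. These correlations are across miRNAs that share library depth, and no library stood with the other tissue. Results are given with and without this shallow lung library.

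CPM are counts divided by the total of known counts without miR-486-5p and by a trimmed-mean scaling factor, so a fold change is relative to the bulk of the known miRNAs in each library. Because miR-486-5p is outside its own denominator, its CPM exceeds 1000000 in blood. The scaling factor was 3.06 in the shallow lung library, 0.562 to 0.840 in the other lung libraries and 0.893 to 1.35 in blood. The larger factor lowers every CPM of the shallow library, which gave the lowest lung value of miR-143-3p and of miR-10a-5p. Of the 459 known miRNAs, 411 had a count in lung and 283 in blood, 131 had counts in lung alone, 3 in blood alone and 45 in neither. After low counts were filtered, 198 were tested with edgeR's quasi-likelihood test with week as a covariate, and 172 passed an adjusted p of 0.05 (86.9%): 104 were higher in lung (52.5%) and 68 were lower in lung (34.3%). The median log2 fold change of the 198 was 1.38 rather than 0, and it depended on the scaling, at 0.38 with DESeq2-type size factors, 0.93 with library totals alone and 4.27 with miR-191a-5p as a fixed reference. With that last scaling 170 were called and 88.2% of them were higher in lung, beside 60.5% of the 172. A marker was a called miRNA that differed at least 4-fold and whose 6 lung libraries did not overlap its 6 blood libraries, which gave 59 markers of lung (29.8% of those tested) and 44 of blood (22.2%). Lung libraries all lay above blood for 59 miRNAs (29.8%) and all below for 51 (25.8%). Without the shallow lung library 208 were tested, 111 were higher in lung (53.4%), 73 lower (35.1%), and the markers of lung numbered 95. A miRNA with 0 counts in that library cannot lie above blood in every lung library. Some with counts there, such as miR-22-3p with 100, also overlapped blood only through it. The part of the 0 counts, of the scaling factor and of the added miRNAs in this rise was not tested.

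**Figure D1:**
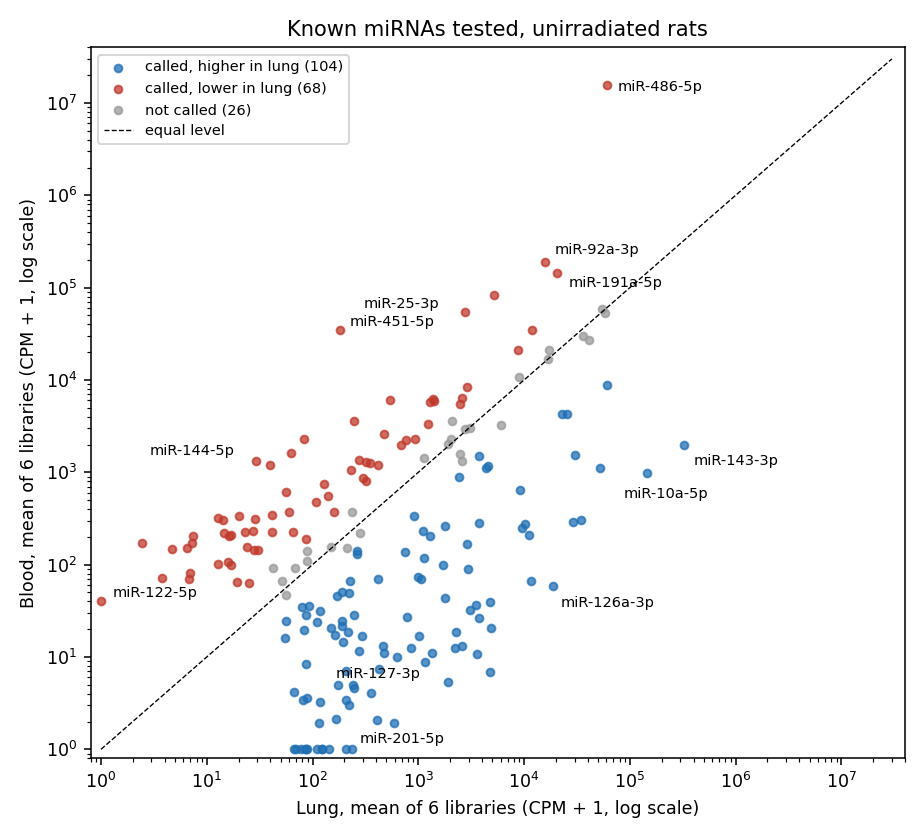
Mean level of each of the 198 tested miRNAs in 6 lung libraries (horizontal axis) and 6 blood libraries (vertical axis), in CPM + 1 on log scales, coloured by the edgeR call. Most points lie away from the line of equal level, 104 called higher in lung and 68 lower, with miR-486-5p highest in blood and miR-143-3p highest in lung.

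The most abundant miRNA of lung was a smooth muscle one. miR-143-3p, of the miR-143/145 pair known from smooth muscle, was at 85977 to 806898 CPM in lung (median 245632), against 1138 to 3464 CPM in blood (median 1767). Of known counts without miR-486-5p it took 25.2% ± 10.3 in lung and 0.215% ± 0.0873 in blood (SD, n = 6 each), and was 150-fold higher in lung, with a log2 fold change of 7.23 ± 0.67 (SE, edgeR adjusted p = 1.9e-14). Its neighbour miR-145-5p was at 149 to 1804 CPM in lung (median 1168), against 0 to 19.8 CPM in blood (median 6.58), with a log2 fold change of 7.12 ± 0.71 (SE, edgeR adjusted p = 1.64e-13). All 4 arms of the pair rose in lung and 3 were markers, beside 52.5% and 29.8% of all tested. The fourth, miR-143-5p, had 0 counts in the shallow lung library and 1 count in blood, with a lung over blood count ratio of 125 (95% interval 22.4 to 4961, counting error only). miR-143-5p, miR-145-5p and miR-145-3p had at most 3 counts in any blood library, so they passed the low-count filter through lung. A call lower in lung was therefore hardly possible for these arms.

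Endothelial miR-126, hosted by Egfl7 and known for vessel integrity, was likewise a lung miRNA in both arms. miR-126a-5p was at 4873 to 74052 CPM in lung (median 32404), against 142 to 447 CPM in blood (median 286), with a log2 fold change of 6.86 ± 0.66 (SE, edgeR adjusted p = 4.35e-14). miR-126a-3p was at 2984 to 35486 CPM in lung (median 19529), against 26.4 to 130.3 CPM in blood (median 46.8), with a log2 fold change of 8.46 ± 0.72 (SE, edgeR adjusted p = 2.5e-15). No lung library of either arm overlapped a blood library, although the blood values were above 0 throughout. miR-10a-5p, which lies in the Hoxb cluster, was the second most abundant lung miRNA with 146623 ± 68516 CPM in lung and 981 ± 422 CPM in blood (SD, n = 6 each), with a log2 fold change of 7.16 ± 0.64 (SE, edgeR adjusted p = 7.24e-15).

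Epithelial miRNAs separated the tissues further. The miR-200 family keeps epithelial cells epithelial by repressing Zeb1 and Zeb2. Of its 8 listed arms 5 were tested, all higher in lung and 4 of them markers, beside 52.5% and 29.8% of all tested. Their median log2 fold change was 7.88 beside 1.38 over all tested. The 8 arms had 36 blood counts in all, so the 5 passed the low-count filter through lung. A call lower in lung was therefore hardly possible. miR-429 was at 497 to 7527 CPM in lung (median 3306), against 0 to 27.3 CPM in blood (median 6.62). miR-141-3p was at 646 to 6707 CPM in lung (median 3823), against 10.9 to 55.9 CPM in blood (median 20.9), with a log2 fold change of 7.39 ± 0.68 (SE, edgeR adjusted p = 1.47e-14). miR-200a-3p had 1502 counts in lung and 1 in blood, a ratio of 428 (95% interval 76.7 to 16909, counting error only). Summed over the 8 arms, the family reached 1343 to 20127 CPM in lung (median 11208), against 21.8 to 111.7 CPM in blood (median 40.3), and the 3 arms left untested had no blood counts.

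Ciliated cell miRNAs behaved in the same way. miR-34b and miR-34c share a precursor transcript and, with miR-449, act in multiciliogenesis. Of 6 listed arms 5 were tested and all 5 were higher in lung, beside 52.5% of all tested. The 6 arms had 30 blood counts in all, so the 5 passed the low-count filter through lung. miR-34c-5p was at 597 to 3364 CPM in lung (median 2294), against 0 to 19.8 CPM in blood (median 12.3), with a log2 fold change of 7.73 ± 0.69 (SE, edgeR adjusted p = 6.68e-15). miR-34b-3p had 705 lung counts and none in blood, which makes it at least 66.9-fold higher in lung against a floor of 3 counts over the 6 blood libraries, and miR-34c-3p at least 47.9-fold. The median log2 fold change of the 5 was 7.73, or 6.06 with such miRNAs at their bound. miR-449a-5p differed least, with 294 ± 93.3 CPM in lung and 15.7 ± 13.2 CPM in blood (SD, n = 6 each).

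Other epithelial lists moved the same way. miR-375-3p, known from neuroendocrine and secretory cells, was at 2486 to 26460 CPM in lung (median 10295), against 20.4 to 205 CPM in blood (median 43.3), with a log2 fold change of 7.57 ± 0.72 (SE, edgeR adjusted p = 3.1e-14). The sensory and epithelial miR-183, miR-96 and miR-182 cluster had 3 of 4 arms tested and all 3 higher in lung, beside 52.5% of all tested. It was led by miR-182 at 2486 to 26089 CPM in lung (median 7960), against 185 to 335 CPM in blood (median 281). miR-205 and miR-203a-3p, of basal and squamous epithelium, had 345 and 624 counts in lung and 0 and 2 counts in blood. Both passed the low-count filter through lung. miR-205 was at least 32.8-fold higher in lung and absent from the shallow lung library, so it was no marker. For miR-203a-3p the count ratio was 88.9 (95% interval 24.5 to 735, counting error only).

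**Figure D2:**
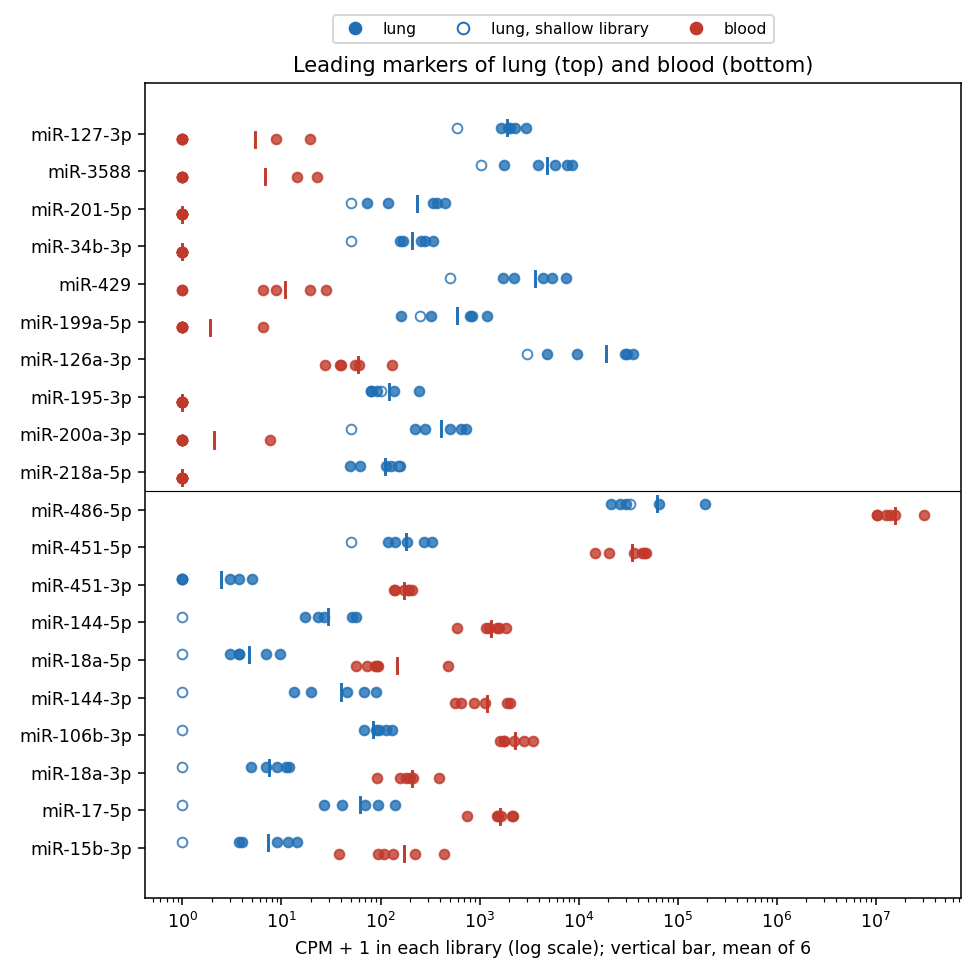
CPM + 1 in each of the 6 lung and 6 blood libraries (horizontal axis, log scale) for the 10 lung markers and 10 blood markers with the largest log2 fold change and at least 100 CPM in the higher tissue; the bars are means and open circles the shallow lung library. Lung and blood points do not overlap for any of the 20, and several lung markers sit at 0 in every blood library.

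miR-199a-5p and miR-214-3p, which come from the Dnm3os transcript of mesenchymal cells, were nearly absent from blood. miR-199a-5p had 2002 lung counts and 1 blood count, a ratio of 570.2 (95% interval 102 to 22534, counting error only). miR-214-3p had 274 lung counts and none in blood and was at least 26-fold higher in lung. miR-199a-3p, the abundant arm, was at 746 to 3810 CPM in lung (median 2139), against 10.7 to 37.2 CPM in blood (median 14.6). The 3 arms listed were all tested, higher in lung and markers, beside 52.5% higher and 29.8% markers of lung over all tested. Their median log2 fold change was 7.82, or 7.14 with the bound. With 14 blood counts in all, they passed the low-count filter through lung.

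The imprinted Dlk1-Dio3 locus on rat chromosome 6 carries a maternally expressed array of miRNAs, abundant in embryo and placenta. Of 70 listed arms, 52 had counts in lung and 2 in blood, with 7810 lung counts against 3 blood counts in total. Of all 459 known miRNAs, 411 had counts in lung and 283 in blood. Known counts without miR-486-5p were 4241642 in lung and 770200 in blood, so a rare arm is seen more readily in lung. Only 2 arms were deep enough to be tested, and both passed the low-count filter through lung. miR-127-3p, which is antisense to the imprinted Rtl1, held most of the lung counts of the locus. It was at 597 to 2965 CPM in lung (median 1994), against 0 to 18.6 CPM in blood (median 0). Its 6797 lung counts against 2 blood counts gave a ratio of 968 (95% interval 268 to 7995, counting error only). miR-541-5p, the other, had 209 lung counts and none in blood, at least 19.8-fold higher in lung.

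The miR-99, miR-100 and miR-125 clusters, in which miR-125 is the vertebrate relative of worm lin-4, had 8 of 12 arms tested. All 8 were higher in lung and 7 were markers, beside 52.5% and 29.8% of all tested. However, miR-125b-1-3p had no blood count, and miR-125b-2-3p, miR-125b-5p, miR-100-5p and let-7e-5p had at most 11 in any blood library. These arms passed the low-count filter through lung, so a call lower in lung was hardly possible for them. miR-99b-5p was at 27300 to 81530 CPM in lung (median 52820), against 531 to 2132 CPM in blood (median 1003), with a log2 fold change of 5.61 ± 0.59 (SE, edgeR adjusted p = 7.88e-13). miR-125a-5p, from the same cluster at chr1:67350064-67350759 (GRCr8), was at 12034 to 49718 CPM in lung (median 27983), against 107 to 652 CPM in blood (median 261), with a log2 fold change of 6.65 ± 0.62 (SE, edgeR adjusted p = 2.05e-14). The median log2 fold change over the 8 was 6.62, or 6.10 with groups at 0 in blood at their bound. On the X chromosome, all 6 tested arms of the miR-322, miR-351, miR-450a, miR-503 and miR-542 array at chrX:137720933-137726241 (GRCr8) rose in lung, beside 52.5% of all tested. Their fitted log2 fold changes were from 5.39 to 7.71, the last for miR-542-3p with 0 blood counts. Apart from miR-351-5p, the arms of this array had at most 8 counts in any blood library. They too passed the low-count filter through lung.

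Among the remaining leading markers of lung, miR-3588 was at 1044 to 8535 CPM in lung (median 4805), against 0 to 21.8 CPM in blood (median 0), with a log2 fold change of 9.37 ± 0.81 (SE, edgeR adjusted p = 2.84e-15), or 10.46 without the third blood library at 4 weeks. In the first and second lung libraries at 1 week it had 4224 and 2569 counts, beside 4251 and 2612 of miR-125b-5p. In the first of these, miR-3553 and miR-183-5p had 775 and 819, and miR-3586-3p and miR-151-5p had 4085 and 3806. Whether such pairs share reads was not tested, so the counts of tested miRNAs and markers may hold some reads more than once. miR-201-5p, on the X chromosome, had 877 lung counts and none in blood and was at least 83.3-fold higher in lung. Likewise miR-195-3p was at least 33.2-fold and miR-218a-5p, from the Slit2 and Slit3 genes, at least 29.5-fold higher in lung. In all, 12 tested miRNAs had no blood count and passed the low-count filter through lung alone. A fitted fold change of these depends on the prior count and is no bound.

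The inflammation-responsive miR-146 pair was also a lung marker pair in these unirradiated rats. miR-146b-5p, induced in inflammation, was at 9349 to 43095 CPM in lung (median 31033), against 729.7 to 2868 CPM in blood (median 1434), with a log2 fold change of 4.29 ± 0.55 (SE, edgeR adjusted p = 3.12e-10), and miR-146a-5p, an NF-kB target that represses Traf6 and Irak1, was at 398 to 7118 CPM in lung (median 3438), against 13.2 to 74.5 CPM in blood (median 25.1). miR-21-5p, often raised in inflammation, was not called: it was at 696 to 4394 CPM in lung (median 2991), against 1269 to 4113 CPM in blood (median 3325), a log2 fold change of -0.13 (SE 0.48). It was called lower in lung with size factors of the DESeq2 type, and higher with miR-191a-5p scaling, at 2.85. miR-221-3p and miR-222-3p, repressors of p27, had log2 fold changes of 2.53 (SE 0.50) and 4.13 (SE 0.52), and both rose in lung. In the miR-23, miR-27 and miR-24 clusters 5 of 6 tested arms rose in lung, beside 52.5% of all tested. They were led by miR-24-2-5p at 4.60 (SE 0.65), or 5.23 without the second blood library at 4 weeks. miR-27b-3p was not called at -0.01 (SE 0.48), but was called lower in lung with size factors of the DESeq2 type, at -1.07, and higher with miR-191a-5p scaling, at 2.78. The striated muscle miRNAs were low, with miR-133a-3p at 0 to 160.2 CPM in lung (median 151), against 10.7 to 61.3 CPM in blood (median 30.3), higher in lung, with a log2 fold change of 2.16 ± 0.54 (SE, edgeR adjusted p = 0.000226), and miR-1-3p at 27 lung counts and 2 blood counts. The neuronal miR-9a and miR-124 list had 28 lung counts in all and no blood counts. The raw counts of this list and of miR-1-3p do not allow for the greater total depth of lung.

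**Figure D3:**
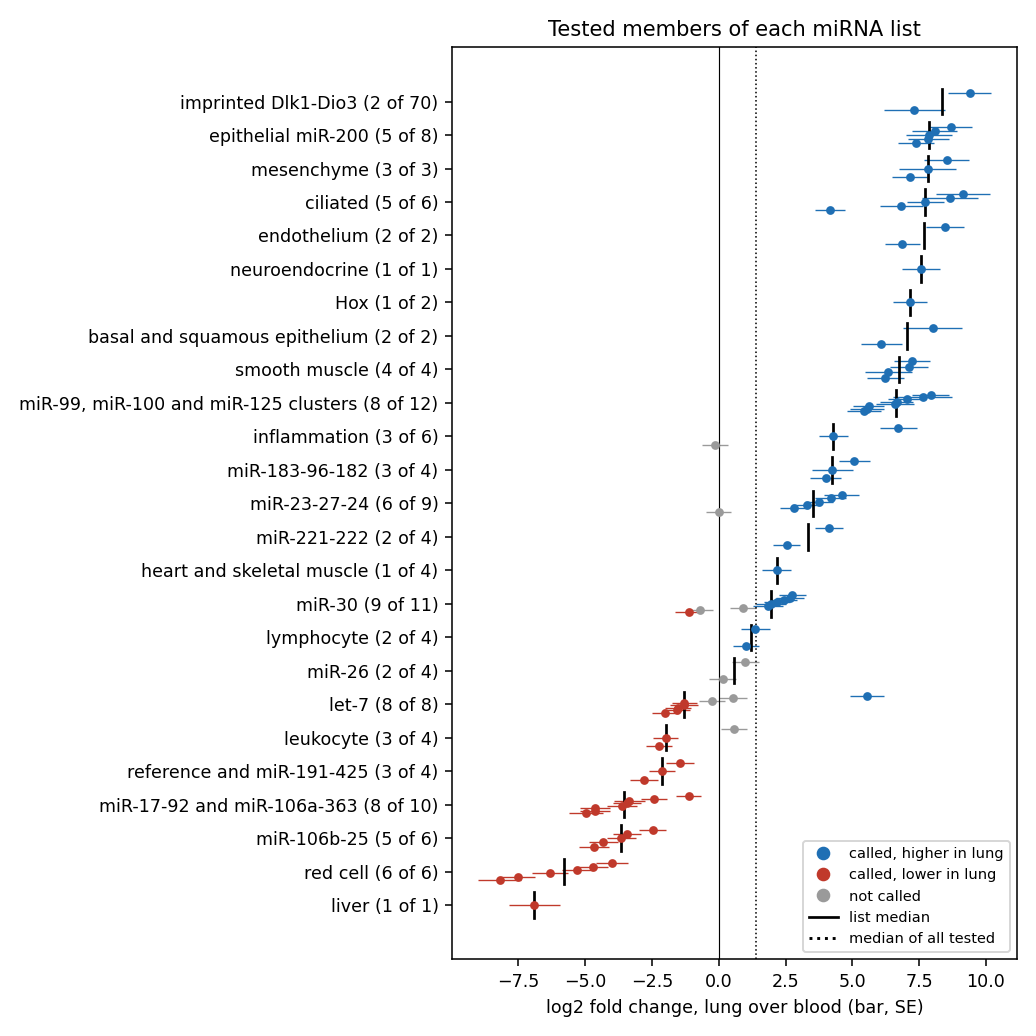
Log2 fold change of lung over blood with its SE for the tested members of each list, with tested and listed members in brackets; black bars are list medians, the dotted line is the median over all 198 tested miRNAs (1.38). Epithelial, endothelial, smooth muscle, mesenchymal and imprinted lists lie right of that line, and the red cell, miR-17-92 and miR-106b-25 lists lie left of 0.

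Red cell miRNAs marked blood most strongly. miR-486-5p, processed from the erythroid Ank1 locus, was at 21339 to 191422 CPM in lung (median 31808), against 10247700 to 30820600 CPM in blood (median 13390000), 295-fold lower in lung, with a log2 fold change of -8.21 ± 0.81 (SE, edgeR adjusted p = 1.53e-13). Every blood library lay far above the highest lung library. miR-451-5p, which is cut by Argonaute 2 rather than Dicer and is needed for red cell maturation, was at 49.7 to 328 CPM in lung (median 161), against 14804 to 48236 CPM in blood (median 40162), 181-fold lower in lung, with a log2 fold change of -7.50 ± 0.64 (SE, edgeR adjusted p = 2.5e-15). Its neighbours miR-144-5p and miR-144-3p, 1 transcript with miR-451 at chr10:63459397-63459640 (GRCr8), were lower in lung by log2 fold changes of -5.30 (SE 0.58) and -4.72 (SE 0.59). miR-144-3p was at 0 to 89.5 CPM in lung (median 31.6), against 569.5 to 2030 CPM in blood (median 1017). miR-451-3p, the arm cut away, was lower in lung too, at -6.32 (SE 0.66), or -5.72 without the first lung library at 4 weeks. It had at most 3 counts in any lung library and passed the low-count filter through blood, so its fitted value lies near the floor. miR-16-5p, a cell cycle repressor abundant in red cells, was at 448 to 10238 CPM in lung (median 5183), against 37355 to 141679 CPM in blood (median 81077), with a log2 fold change of -3.99 ± 0.60 (SE, edgeR adjusted p = 2.43e-08).

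All 6 red cell arms listed were tested, lower in lung and markers of blood, beside 34.3% and 22.2% of all tested. The median log2 fold change of these arms was -5.81 beside 1.38 over all tested. Their sum was 30709 to 192982 CPM in lung and 10346400 to 30876200 CPM in blood, so red cell miRNAs were also measured in lung, and the part of blood in the lobe in this or any other lung value was not tested. Within lung the sum was highest in the third library at 4 weeks, where miR-486-5p reached 191422 CPM against 21339 to 65249 CPM in the other lung libraries. miR-451-5p did not follow it, with 118 CPM in that library and up to 328 CPM in the others.

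Proliferation clusters formed the second group of blood markers. The miR-17-92 cluster, at chr15:98587848-98588632 (GRCr8), and its paralogue on the X chromosome are driven by Myc and expressed in blood progenitors and lymphocytes. Of their 10 listed arms 8 were tested, all 8 lower in lung and 7 markers of blood, beside 34.3% and 22.2% of all tested, with a median log2 fold change of -3.53. That direction did not hold under miR-191a-5p scaling, where 1 arm was called higher in lung, miR-19b-3p at 1.66, and 3 were called lower. miR-92a-3p, the most abundant known miRNA of blood after miR-486-5p, was at 4823 to 30236 CPM in lung (median 15056), against 98086 to 285988 CPM in blood (median 186273), with a log2 fold change of -3.63 ± 0.55 (SE, edgeR adjusted p = 2.43e-08). miR-17-5p was at 0 to 139 CPM in lung (median 54.7), against 745 to 2201 CPM in blood (median 1600), with a log2 fold change of -4.62 ± 0.57 (SE, edgeR adjusted p = 1.11e-10). miR-18a-5p was at 0 to 8.75 CPM in lung (median 2.71), against 55.9 to 477 CPM in blood (median 89.1), with a log2 fold change of -4.98 ± 0.63 (SE, edgeR adjusted p = 2.84e-10), with 477 CPM in the first blood library at 4 weeks and a log2 fold change of -3.98 without it. Its partner miR-18a-3p was at -4.63 (SE 0.56) on the log2 scale, and miR-15b-3p, of the miR-15b and miR-16 locus, at -4.54 (SE 0.59).

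The paralogous miR-106b-25 cluster, inside Mcm7, had 5 of 6 arms tested, all 5 lower in lung and 4 markers, beside 34.3% and 22.2% of all tested. Its median log2 fold change was -3.66. Under miR-191a-5p scaling miR-106b-5p turned to 0.13, and 3 of the 5 were called lower in lung. miR-25-3p was at 945 to 4371 CPM in lung (median 2776), against 35296 to 73127 CPM in blood (median 52280), with a log2 fold change of -4.33 ± 0.54 (SE, edgeR adjusted p = 1.69e-10). miR-106b-3p was at 0 to 131 CPM in lung (median 91.7), against 1620 to 3426 CPM in blood (median 1997), with a log2 fold change of -4.66 ± 0.55 (SE, edgeR adjusted p = 3.5e-11). miR-93-5p averaged 542 ± 308 CPM in lung and 6009 ± 950.1 CPM in blood (SD, n = 6 each). Other blood markers included miR-185-5p at -4.51 (SE 0.53), the hypoxia-induced miR-210-3p at -2.89 (SE 0.48) and miR-484 at -2.38 (SE 0.49) on the log2 scale.

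White cell miRNAs were mixed: of 4 listed leukocyte arms 3 were tested and 2 were lower in lung, and of 4 listed lymphocyte arms 2 were tested and both were higher in lung. Over all tested, 34.3% were lower and 52.5% higher in lung. miR-142, expressed across blood cell lineages, was lower in lung in both arms, with miR-142-5p at 99.5 to 541 CPM in lung (median 237), against 959.6 to 2153 CPM in blood (median 1136), with a log2 fold change of -2.24 ± 0.50 (SE, edgeR adjusted p = 4.97e-05), though miR-191a-5p scaling turned its log2 fold change to 0.47 and that of miR-142-3p to 0.73. miR-223-3p, the myeloid miRNA of neutrophils and platelets, was not called: it was at 49.7 to 439.6 CPM in lung (median 213), against 74.5 to 231 CPM in blood (median 153), log2 fold change 0.56 (SE 0.48). The lymphocyte miRNA miR-150-5p was higher in lung, at 547 to 6407 CPM in lung (median 3763), against 290.0 to 4302 CPM in blood (median 799.8), with a log2 fold change of 1.37 ± 0.54 (SE, edgeR adjusted p = 0.0172), but its libraries overlapped, and without the third blood library at 1 week the log2 fold change was 2.12. miR-342-3p, also of lymphocytes, had a log2 fold change of 1.02 ± 0.49 (SE, edgeR adjusted p = 0.0463). Neither lymphocyte call held with library totals alone or with size factors of the DESeq2 type, and with the size factors miR-342-3p turned to -0.11.

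The liver miRNA miR-122-5p was found in blood and not in lung. It was at 0, 5.36, 49.0, 54.5, 62.4 and 65.9 CPM in the 6 blood libraries, 36 counts in 5 of them, against 0 counts in every lung library. Against a floor of 3 counts over the lung libraries it was at least 42.1-fold lower in lung. It passed the low-count filter through blood alone, was not tested with miR-486-5p in the totals, and was no marker because 1 blood library was also at 0. Besides it, miR-1224 had 4 counts and miR-138-2-3p 1 count in blood with none in lung. miR-191a-5p, used as a reference in many expression assays, was itself unequal, at 3978 to 30490 CPM in lung (median 24936), against 85142 to 191661 CPM in blood (median 138189), with a log2 fold change of -2.80 ± 0.53 (SE, edgeR adjusted p = 3.01e-06), as was its neighbour miR-425-5p at -2.13 (SE 0.49). Under miR-191a-5p scaling this difference is removed by construction.

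Several abundant miRNAs were not called. miR-26a-5p, an Ezh2 repressor, was at 8503 to 99943 CPM in lung (median 59160), against 33673 to 72115 CPM in blood (median 53670), a log2 fold change of 0.14 (SE 0.51). miR-181a-5p was at 11536 to 60056 CPM in lung (median 36398), against 22360 to 51935 CPM in blood (median 24337) and let-7f-5p at 6464 to 70745 CPM in lung (median 40180), against 9066 to 42989 CPM in blood (median 27465), and neither was called. miR-3596a, which is annotated on the strand opposite a let-7 hairpin and may share reads with it, was at 11487 to 87739 CPM in lung (median 55741), against 36554 to 79002 CPM in blood (median 63652). The 95% intervals of these differences were -0.86 to 1.13 for miR-26a-5p, -0.73 to 1.16 for miR-181a-5p and -0.49 to 1.56 for let-7f-5p on the log2 scale. With size factors of the DESeq2 type miR-26a-5p, at -0.97, and miR-3596a, at -1.12, were called lower in lung, and DESeq2 itself called miR-181a-5p lower at -0.74. With miR-191a-5p scaling all 4 were called higher in lung, and without the shallow library let-7f-5p was called higher at 0.91 (edgeR adjusted p = 0.0471). In the miR-30 family 6 of 9 tested arms rose in lung, beside 52.5% of all tested and 4 of 9 with size factors of the DESeq2 type, led by miR-30a-5p at 13575 to 91353 CPM in lung (median 61194), against 5189 to 12951 CPM in blood (median 8608), and miR-30e-5p was lower in lung at -1.13 (SE 0.50) except under miR-191a-5p scaling, where it was at 1.53.

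Among the tested miRNAs with a RefSeq sequence, 65 fell into 23 families of 2 or more members with the same 7-base seed. In 13 families the called members lay on the same side, in 6 they lay on both sides, and in 4 fewer than 2 members were called. Over all tested miRNAs 52.5% were higher and 34.3% lower in lung. Each member is given by its own test, and the difference between members was not tested.

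The seed AGCAGCA, shown in capitals for miR-16-5p, miR-15b-5p, miR-195-5p, miR-497-5p and miR-322-5p, had 3 members higher and 2 lower in lung. miR-195-5p averaged 1340 ± 915 CPM in lung and 9.99 ± 9.25 CPM in blood, and miR-15b-5p averaged 244 ± 182 CPM in lung and 3573 ± 608 CPM in blood (SD, n = 6 each). The log2 fold changes were 7.10 (SE 0.72) for miR-195-5p, 6.10 (SE 0.73) for miR-322-5p, 5.83 (SE 0.69) for miR-497-5p, -3.79 (SE 0.55) for miR-15b-5p and -3.99 (SE 0.60) for miR-16-5p. These 5 directions stayed under all 4 other scalings.

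The seed AUUGCAC gave a like division. miR-92b-3p, from a locus of its own on chromosome 2, was at 7161 to 19909 CPM in lung (median 9974), against 95.4 to 466 CPM in blood (median 181), with a log2 fold change of 5.74 ± 0.59 (SE, edgeR adjusted p = 3.92e-13), whereas its seed mates miR-92a-3p, miR-25-3p and miR-363-3p were lower in lung. Under miR-191a-5p scaling miR-363-3p turned to 0.090 and was not called. With that scaling miR-92a-3p stayed below 0, at -0.63, but was not called either, while miR-25-3p was still called lower in lung, at -1.15. For AGUGCAA, miR-130a-3p was higher in lung at 2.61 (SE 0.52) and miR-130b-3p lower at -4.28 (SE 0.57). For CAGUGCA, miR-152-3p was higher at 4.93 (SE 0.66) and miR-148b-3p lower at -1.47 (SE 0.47), the last turning to 1.35 under miR-191a-5p scaling.

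In the let-7 family, with the seed GAGGUAG, let-7e-5p was the member called higher in lung, and without the shallow library let-7f-5p was called higher as well, at 0.91. let-7e-5p was at 348 to 2655 CPM in lung (median 1828), against 6.59 to 112 CPM in blood (median 33.1), with a log2 fold change of 5.55 ± 0.63 (SE, edgeR adjusted p = 9.62e-12), and it lies beside miR-99b and miR-125a on chromosome 1. let-7d-5p was at 348 to 2328 CPM in lung (median 1337), against 2684 to 7770 CPM in blood (median 6427), with a log2 fold change of -2.03 ± 0.49 (SE, edgeR adjusted p = 0.00018). Of the other members let-7b-5p, let-7c-5p, let-7i-5p and miR-98-5p were also lower in lung, let-7a-5p and let-7f-5p were not called, and under miR-191a-5p scaling all 8 members were called higher in lung.

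**Figure D4:**
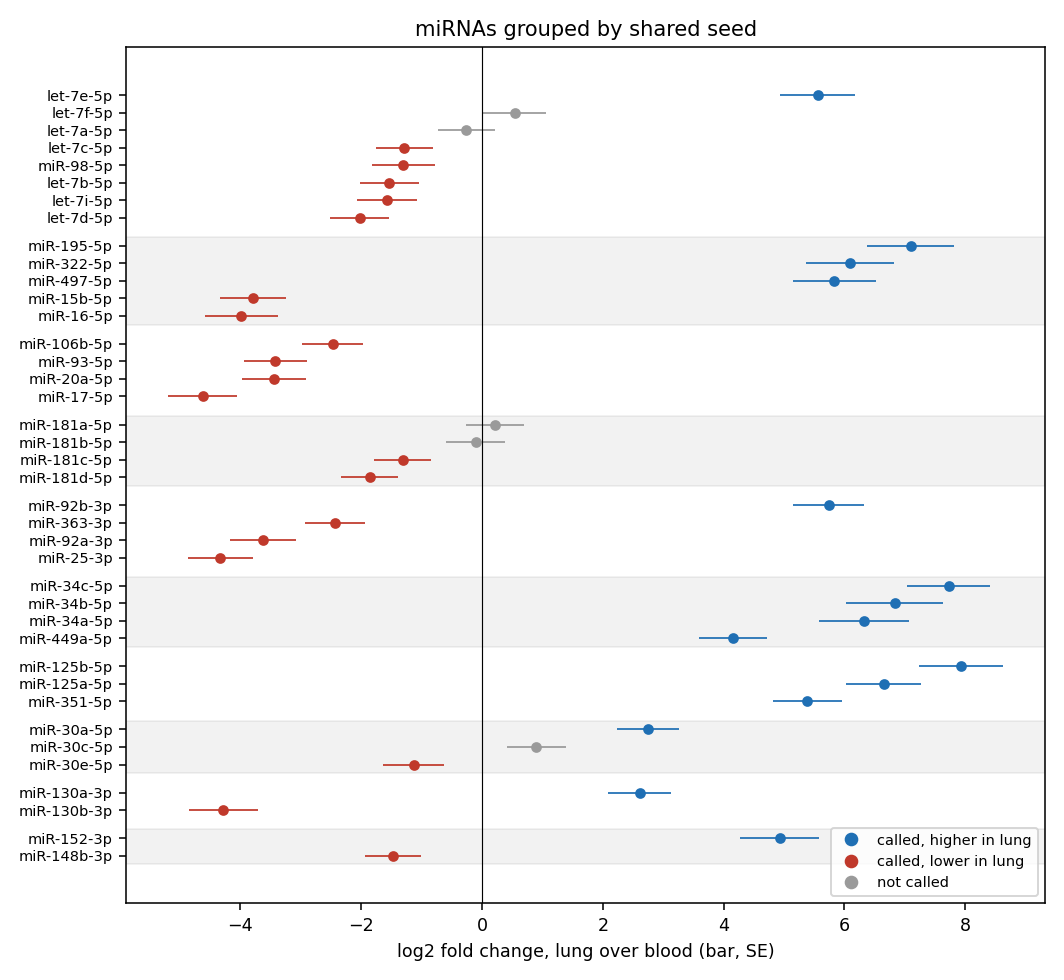
Log2 fold change of lung over blood with its SE for the tested miRNAs, grouped by a shared seed, for families of 3 or more members and pairs called in both directions; shading separates the families. let-7e-5p (5.55), miR-195-5p (7.10) and miR-92b-3p (5.74) stand right of 0 while other members of their families stand left of it.

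Neighbours on a chromosome mostly lay on the same side. Precursors on the same strand with gaps of up to 10000 bases in GRCr8 formed 26 groups with 2 or more precursors of tested miRNAs. In 18 groups the called arms lay on the same side, in 3 on both sides, and in 5 fewer than 2 arms were called. Over all tested miRNAs 52.5% were higher and 34.3% lower in lung, so some groups would lie on the same side without any link. Both arms of a hairpin were counted, so the groups are not independent agreements, and the count was not tested. Mature miRNAs made from several loci counted in each, since reads cannot be assigned to a locus. Median GC content was 47.7% in the 54 lung markers with a sequence, 48.9% in the 40 blood markers and 45.5% in the other 83.

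The arm used also differed between the tissues. For 18 precursors both arms had at least 30 counts in each tissue, and the log2 ratio of 5p over 3p counts, with 1 added to each, was compared by a two-sided exact permutation test over the 12 libraries. The ratio differed for 9 of the 18 (50%) at an adjusted p of 0.05, and the libraries did not overlap for 4 (22.2%). The smallest p this design allows is 0.00216.

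For miR-532 the leading arm changed. The log2 ratio was 0.00 to 3.81 in lung and -3.17 to -0.63 in blood, means 2.13 ± 1.27 and -1.46 ± 0.91 (SD, n = 6 each), a difference of 3.59 (exact permutation test, adjusted p = 0.00974). The lung value of 0.00 is that of the shallow library, which had no count of either arm. Lung held 547 counts of miR-532-5p and 95 of miR-532-3p, and blood 34 and 107, so that 5p was called higher in lung at 2.15 (SE 0.52) and 3p lower at -2.11 (SE 0.50) on the log2 scale. For miR-140 the 3p arm led in both tissues, with mean log2 ratios of -4.44 ± 1.17 in lung and -6.96 ± 0.64 in blood (SD, n = 6 each; exact permutation test, adjusted p = 0.00974). For miR-126a the 5p arm led in both, at 0.94 ± 0.38 in lung and 2.32 ± 0.57 in blood (SD, n = 6 each; exact permutation test, adjusted p = 0.00974), on 42 counts of miR-126a-3p in blood. miR-101a was the fourth without overlap, at -3.11 ± 0.41 in lung and -1.91 ± 0.29 in blood (SD, n = 6 each). The ratios of miR-106b, let-7d, miR-423, miR-872 and miR-191a also differed, with adjusted p of 0.0167 to 0.0433 by the exact permutation test. Without the shallow lung library 8 of the 9 remained, miR-191a being lost at an adjusted p of 0.0602 (exact permutation test) and miR-30a gained.

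**Figure D5:**
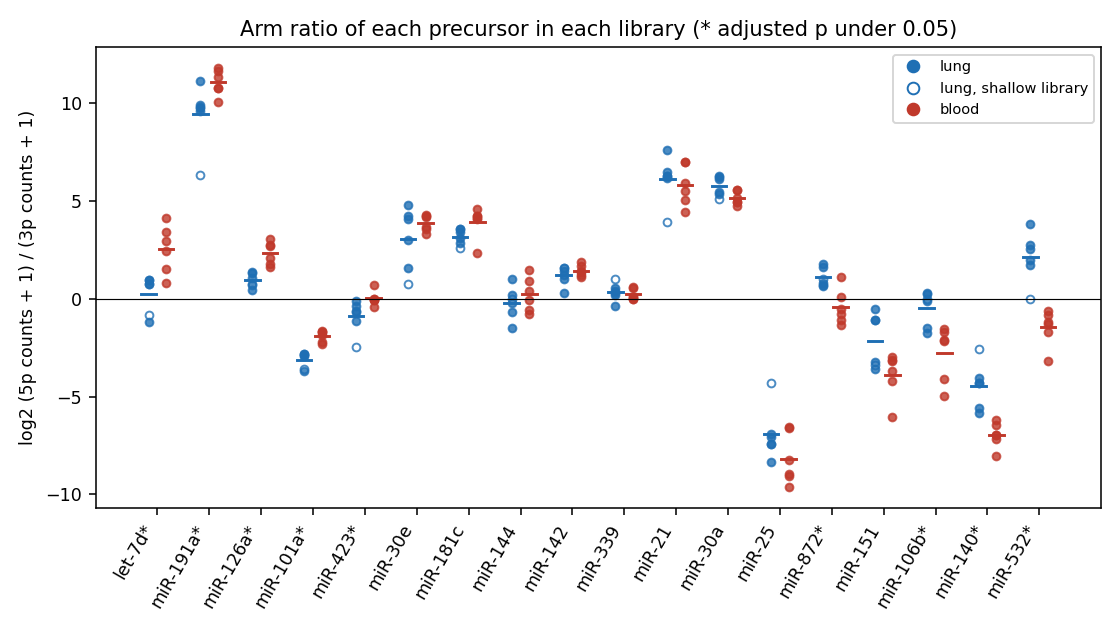
Log2 ratio of 5p over 3p counts (1 added to each) in each library for 18 precursors, lung left of blood, with bars at the means of 6 and open circles for the shallow lung library; stars mark an adjusted p under 0.05 by the exact permutation test. miR-532 lies at or above 0 in lung and below 0 in blood.

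The difference between lung and blood was also fitted within each week. At 1 week 91 of the 198 were higher in lung (46%) and 60 lower (30.3%), and at 4 weeks 100 were higher (50.5%) and 56 lower (28.3%), in 1 fit of all 12 libraries. With the 1-week libraries fitted and scaled alone the balance turned, 56 being higher and 82 lower in lung of 154 tested, with a median log2 fold change of -1.60. No miRNA differed between the weeks in its lung to blood contrast by edgeR's interaction test (0%), and 8 had an unadjusted p under 0.05 (4.04%). The smallest was that of miR-375-3p, with log2 fold changes of 5.93 at 1 week and 9.32 at 4 weeks, a difference of 3.39 (SE 1.06, unadjusted p = 0.0026, edgeR adjusted p = 0.515). The shallow library is 1 of the 3 lung libraries at 1 week. Without it the log2 fold change was 7.55 for miR-143-3p, 7.46 for miR-10a-5p, 8.79 for miR-126a-3p, 9.67 for miR-127-3p, -8.01 for miR-486-5p, -7.33 for miR-451-5p and -3.33 for miR-92a-3p. miR-150-5p was then at 1.68 and miR-223-3p, still not called, at 0.75. The counts of members called per list were the same except that let-7, miR-30, miR-26 and miR-221-222 each gained 1 arm called higher in lung.

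The 24 libraries of the rats given 15 Gy are separate libraries and were fitted alone with week as a covariate. Of 214 miRNAs tested there, 105 were higher in lung (49.1%) and 93 lower (43.5%). Calls shared with the unirradiated libraries were 98 higher in lung, 94.2% of the 104 and 93.3% of the 105, and 68 lower in lung, 100% of the 68 and 73.1% of the 93. The only miRNA called in opposite directions was miR-374-5p, at 1.48 in unirradiated and -0.61 in irradiated libraries on the log2 scale. Of the 20 leading markers, all were called in the same direction in the irradiated libraries, among them miR-451-5p at -8.14 (SE 0.39), miR-486-5p at -6.94 (SE 0.57), miR-126a-3p at 7.21 (SE 0.26) and miR-127-3p at 6.69 (SE 0.30). The irradiated lung libraries also included a shallow one, with 2421 counts on known miRNAs other than miR-486-5p.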

How the data were processed

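Small RNA libraries (TruSeq kit, Illumina sequencer) were made by the authors from lung and whole blood. The deposited table holds raw read counts per feature and library, not normalized. Per the labels and the submitters' processing notes, reads were trimmed with Trim Galore 0.2.5 and mapped with Bowtie 1.1.1 to rat build rn4. The category of each feature is the authors'. The table had 0 value columns without a sample.

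Known mature miRNAs of 12 libraries were fitted here with edgeR 4.0.16 (quasi-likelihood F-test, trimmed-mean scaling, low-count filter by filterByExpr, week and tissue as terms) in R 4.3.3, with Benjamini-Hochberg adjustment over the 198 miRNAs tested and a threshold of 0.05. Library totals left out miR-486-5p, which was tested against the same scaling. Depth limited the precision of low counts: 1 count was 49.7 CPM in the shallowest library, and intervals on count ratios and floors cover counting error only. A group at 0 was bounded with 3 counts over its 6 libraries, 3.53 CPM in blood and 1.00 CPM in lung. Arm ratios were tested with scipy 1.17.1. The fits were tested on simulated data.

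The text names the 10 markers with the largest positive and the 10 with the largest negative log2 fold change among those with at least 100 CPM in the higher tissue, the 10 most abundant miRNAs of each tissue, members of 26 lists and precursors whose arm ratio differed. The members, lists and tests were chosen with earlier results of these data known. Alternatives were other scalings, other filters, no week term, DESeq2 1.42.0, each week alone, the replicate number as a block, leaving out each library, and an exchange of 1 blood library for the library that the study's supplement lists in its place. Leaving out the shallow lung library together with scaling by library totals was added after seeing the data. Sequences and positions came from RefSeq, build GRCr8, and not from rn4.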

Additional observations from a re-analysis of the deposited data

Results flagged for a closer look

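Among 34 named miRNAs in each tissue, 68 sets of 6 libraries in all, a library was marked when its gap to the next, as a share of the set's range, exceeded Dixon's 95% limit, which chance alone gives in about 1 set in 20. There were 8 such sets. In lung, the third library at 4 weeks stood apart for 3 miRNAs. It had 806898 CPM of miR-143-3p against 85977 to 354801 CPM in the other lung libraries, and miR-143-3p took 45.3% of its known counts without miR-486-5p and 17.7 to 26.3% of theirs. It had 191422 CPM of miR-486-5p against 21339 to 65249 CPM, and 242 CPM of miR-195-3p against 78.8 to 135 CPM. Its scaling factor, 0.562, was the lowest of the 12 libraries, and the part of that factor in these values was not tested.

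In blood, the third library at 1 week stood apart with 130 CPM of miR-126a-3p, against 26.4 to 59.0 CPM in the other blood libraries, and with 30820600 CPM of miR-486-5p, against 10247700 to 15585400 CPM. It had the fewest known counts of the blood libraries, 52432 without miR-486-5p. The first blood library at 4 weeks had 477 CPM of miR-18a-5p, against 55.9 to 93.6 CPM. The other 2 rest on 1 count each: miR-199a-5p at 5.45 CPM in the third blood library at 4 weeks and miR-200a-3p at 6.59 CPM in the second blood library at 4 weeks, with 0 CPM in the rest. No difference between the weeks passed its test, and no result met the remaining rules.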

How the results depend on the processing

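Across 110 results under all alternatives, 2499 of 2693 values kept their direction and their side of the threshold, 76 lost a call, 37 gained one and 81, from 28 results, changed sign. The cause was not tested, beyond what the construction of a setting shows.

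Counts moved as follows. Without a filter 271 were called, 183 of them higher in lung. With the study's abundance limits, which leave fewer miRNAs to test, 66 were called, 34 higher and 32 lower, with 31 markers of lung and 19 of blood. With miR-191a-5p scaling 20 were lower, and markers numbered 92 for lung and 7 for blood. With the 1-week libraries alone 56 were higher and 82 lower (40.6% of those called were higher), with the 4-week libraries alone lung had 95 markers, and with a log2 limit of 4 blood had 14. Leaving out each library gave 170 to 184 called, 103 to 111 higher, 66 to 73 lower, 42 to 49 blood markers and 59 to 95 lung markers, the last without the third lung library at 1 week. DESeq2 called 180. Arm ratios differed for 5 of 11 precursors with at least 100 counts of each arm, for 11 of 39 with at least 10 counts, where 8 of the 9 calls were kept, and for 6 to 10 when each library was left out.

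Deviations of same-numbered lung and blood libraries correlated at -0.23 to 0.18, and those of differently numbered ones at -0.20 to 0.36. These ranges overlap and rest on few libraries per group, so they cannot decide whether replicate numbers pair the libraries. With the replicate block 170 were called and 101 of the 103 markers kept. With the replicate block 0 arm ratios differed, in a design whose smallest p is 0.0312.

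Signs that changed, as log2 fold changes, were these. With 1 week alone: miR-26a-5p -1.76, let-7f-5p -1.97, miR-181a-5p -1.53, miR-150-5p -0.22, miR-342-3p -0.00040, miR-223-3p -1.28, miR-30c-5p -0.76, miR-30a-3p -0.014, miR-30c-2-3p -0.98 and miR-26b-5p -1.11. With 4 weeks alone: miR-3596a 0.63, let-7a-5p 0.49, miR-27b-3p 0.28 and miR-21-5p 0.56. With DESeq2: miR-26a-5p -0.97, let-7f-5p -0.41, miR-181a-5p -0.74, miR-342-3p -0.13, miR-223-3p -0.53, miR-30c-5p -0.23 and miR-26b-5p -0.046. Its size factors in edgeR gave the same, with miR-342-3p at -0.11 and miR-26b-5p at -0.047. With all features fitted: miR-3596a 0.45, let-7a-5p 0.40, miR-30e-3p 0.025, miR-27b-3p 0.46 and miR-21-5p 0.45. With the blood library exchanged: miR-27b-3p 0.018 and miR-21-5p 0.069. miR-26a-5p was at -0.077 with the abundance limits, -0.21 with the replicate block, -0.33 with totals alone (miR-181a-5p -0.11), -0.45 with miR-486-5p in the totals (miR-223-3p -0.053) and -0.20 without the shallow library and with totals alone (miR-181a-5p -0.17). Without a filter miR-27b-3p was at 0.017. With miR-191a-5p scaling: miR-3596a 2.88, let-7i-5p 1.48, miR-142-3p 0.73, miR-142-5p 0.47, miR-19b-3p 1.66, miR-363-3p 0.090, miR-106b-5p 0.13, let-7a-5p 2.85, let-7b-5p 1.31, let-7c-5p 1.74, let-7d-5p 0.75, miR-98-5p 1.68, miR-30e-5p 1.53, miR-30e-3p 2.47, miR-27b-3p 2.78, miR-21-5p 2.85, miR-191a-3p 1.07 and miR-425-5p 0.48. Leaving out each library turned only miR-26a-5p (-0.051 to 0.44), miR-3596a (-0.32 to 0.18), let-7a-5p (-0.39 to 0.052), miR-27b-3p (-0.14 to 0.27) and miR-21-5p (-0.35 to 0.16).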
